A study of Mus musculus with 8 samples.

Results

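The proteasome genes were examined in bone marrow progenitors of ACKR1-deficient mice and their wild-type littermates. Members were the non-control probes whose RefSeq transcript belongs to a gene with a symbol of the form Psm, a letter from a to g and a number, with Psmb8 and Psmb9 left out. This gave 48 of the 20145 symbols on the array, on 59 of its 55681 probes. Of these, 47 genes passed the filter on dim probes and were tested. The core particle was taken as Psma1 to Psma7 and Psmb1 to Psmb7 (14 genes). The regulatory particle was taken as Psmc1 to Psmc6 with the Psmd genes that encode its subunits (17 genes). The other members were 3 chaperones of base assembly (Psmd5, Psmd9 and Psmd10), 4 chaperones of core assembly (Psmg1 to Psmg4), 4 activators with 1 inhibitor (Psme1 to Psme4 and Psmf1), and the tissue-restricted core subunits Psma8, Psmb10 and Psmb11. Psmc3ip and Psme3ip1 met the rule by symbol only and encode proteins that are not proteasome subunits.

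The 4 groups, with 2 arrays each, were ACKR1-deficient GMP, wild-type GMP, ACKR1-deficient LSK and wild-type LSK. ACKR1 is an atypical receptor that binds chemokines without the usual signalling. All mice were females 12 weeks old, from a line backcrossed onto C57Bl/6J and kept as heterozygotes. Both populations were sorted from bone marrow as lineage-negative, cKit-positive cells. GMP, the granulocyte-macrophage progenitors, lacked Sca1 and carried CD34 and CD16/32. LSK, which hold the haematopoietic stem cells and the multipotent progenitors, carried Sca1. The labels name no driver of the deficiency and do not say whether the arrays of a group came from separate mice, so the p-values reflect only how far these arrays spread, and that spread may be technical.

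The proteasome degrades proteins tagged with ubiquitin. Its core is a barrel of stacked alpha and beta rings with the proteolytic sites inside, on the beta subunits Psmb5, Psmb6 and Psmb7. The regulatory particle caps the barrel: its base holds a ring of ATPases that unfolds the substrate and opens the gate, and its lid removes the ubiquitin. Subunits are made in matched amounts and assembled with chaperones, and in mammals the transcription factor Nfe2l1 raises many of these genes together when proteolysis falls short.

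The promoters are shown first, since the members are read as one set across the groups. RefSeq windows of 300 bases, from 250 before to 50 after the annotated start on GRCm38.p6, were at hand for 40 member genes (44 promoters). The motif CCGGAAG, a binding site of ETS factors, was searched on both strands. It occurred in 10 of 15 regulatory particle promoters (66.7%; 9 of 14 genes) and in 1 of 12 core promoters (8.33%), against 8.86% of all 32851 promoters of the same length, 11.6% of those of protein-coding genes and 14.3% of those of genes tested on the array. Over all members the count was 17 of 44 (38.6%). Printed here, 5′ to 3′, are 6 of the 10 regulatory particle windows and the window of the single core promoter. The motif or its reverse complement is in capitals. The core promoter, that of Psma6, held 3 matches, and its printed window shows the first.
Psmd13, chr7:140882363-140882419, plus strand: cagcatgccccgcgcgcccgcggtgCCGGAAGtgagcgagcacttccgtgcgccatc
Psmd11, chr11:80428579-80428635, plus strand: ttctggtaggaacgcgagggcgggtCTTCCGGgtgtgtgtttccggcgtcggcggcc
Psmd2, chr16:20651601-20651657, plus strand: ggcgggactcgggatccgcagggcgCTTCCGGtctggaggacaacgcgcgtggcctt
Psmd6, chr14:14120959-14121015, minus strand: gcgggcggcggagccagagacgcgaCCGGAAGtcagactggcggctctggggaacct
Psmd12, chr11:107479486-107479542, plus strand: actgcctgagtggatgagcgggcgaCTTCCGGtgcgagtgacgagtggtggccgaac
Psmc1, chr12:100110149-100110205, plus strand: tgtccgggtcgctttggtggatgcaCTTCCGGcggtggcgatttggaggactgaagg
Psma6, chr12:55398668-55398724, plus strand: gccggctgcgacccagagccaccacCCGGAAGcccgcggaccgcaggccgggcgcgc

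A second motif, TGACNNNGC, is the core of the antioxidant response element, which factors of the Nfe2l family bind. It was found in 6 of 44 member promoters (13.6%) against 12.4% of all promoters, and so was about as frequent among the members as elsewhere. The core promoters that held it were those of Psmb5 and Psmb6, which encode proteolytic subunits, and they are shown with the motif in capitals.
Psmb5, chr14:54618009-54618067, minus strand: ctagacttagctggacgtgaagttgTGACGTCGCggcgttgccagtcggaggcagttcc
Psmb6, chr11:70525323-70525381, plus strand: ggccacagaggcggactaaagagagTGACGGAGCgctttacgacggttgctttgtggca
The CCAAT letters were found in 34.1% of member promoters and 37.4% of all promoters, and TATAAA in 6.82% and 13.6%. No member promoter held matches of different motifs that overlapped (0 of 44). A match is a description of these letters in this window.

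Across the series, the arrays differed in signal. The 75th percentile of the processed signal was 24.6 intensity units on ACKR1-deficient LSK replicate 2 and between 197 and 770 on the other arrays, and 34.3% of its spots were well above background, against 62.5% to 73.1%. Over all features tested, the correlation of that array with the others was 0.690 to 0.784. ACKR1-deficient GMP replicate 1 correlated less with its own replicate (0.898) than with ACKR1-deficient LSK replicate 1 (0.905). All arrays lay on 1 slide. Column 1 held the deficient and column 2 the wild-type samples, and slide column cannot be told apart from genotype. Rows 1 and 3 held the LSK and rows 2 and 4 the GMP samples, so slide row cannot be told apart from population. The probe for Ackr1, the gene named in the genotype, read −0.07 and −0.16 in deficient GMP and −0.50 and −0.45 in wild-type GMP, on a log2 scale on which 0 is the 75th percentile of the array. In LSK it read −0.70 and −0.85 in deficient and −0.66 and −1.05 in wild-type arrays. Ackr1 was not called in either population (adjusted p = 1.00 in GMP and 0.954 in LSK, limma), and whether its probe lies in a part that the deficient mice lack is not given in the sources used here. GMP markers such as Mpo summed to 3233 and 1948 times the array's 75th percentile in deficient GMP and 2493 and 2139 in wild-type GMP, against 433 and 660 in deficient LSK and 397 and 442 in wild-type LSK. LSK markers such as Procr summed to 39.7 and 32.5 in deficient GMP and 36.0 and 31.2 in wild-type GMP, against 121 and 65.3 in deficient LSK and 156 and 193 in wild-type LSK. Not every LSK marker followed its sum. In GMP minus LSK, 4 of 10 were above 0 in deficient mice and 2 of 10 in wild-type mice. Ly6a, which encodes the Sca1 of the sort, was at 1.39 in deficient mice and 0.16 in wild-type mice, and Kit, which both populations carry, at 0.51 in deficient mice and −0.64 in wild-type mice. None of these 4 differences was called. The GMP markers had exceptions too, with 9 of 10 above 0 in deficient mice and 8 of 10 in wild-type mice. Mean Csf3r was 6.41 in GMP and 7.59 in LSK of deficient mice, and 6.25 and 6.37 in wild-type mice. Mean Cd34 was 6.59 in GMP and 7.64 in LSK of wild-type mice. Between genotypes in LSK, 1 of the 10 GMP markers was called: Cebpe, higher in deficient mice by 4.94 (adjusted p = 0.0161, limma). Markers of neutrophil granules and of erythroid cells were far higher in every deficient array than in any wild-type array of its population, as given beside the genotype results.

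Expression of the members was detected widely. Of the 47 genes tested, 37 were well above background on all 8 arrays. For 9 genes a single array fell short, and it was ACKR1-deficient LSK replicate 2 each time (Psmb2, Psmd5, Psmd6, Psmd8, Psmd9, Psmd10, Psmf1, Psmc3ip and Psme3ip1). Psma8, an alpha subunit of the testis, was well above background on 5 arrays, none of them deficient LSK and 1 of them wild-type LSK, so no fold is given for it. Psmb11, the beta subunit of the thymic cortex, was well above background on 1 array and was not tested. The filter kept 10 of the 47 genes through fewer than 4 groups, and a gene kept only where it was high had to differ, so the counts given here are descriptions. The heat map shows each gene centred on its own mean, because levels of different probes cannot be set against each other.

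**Figure D1:**
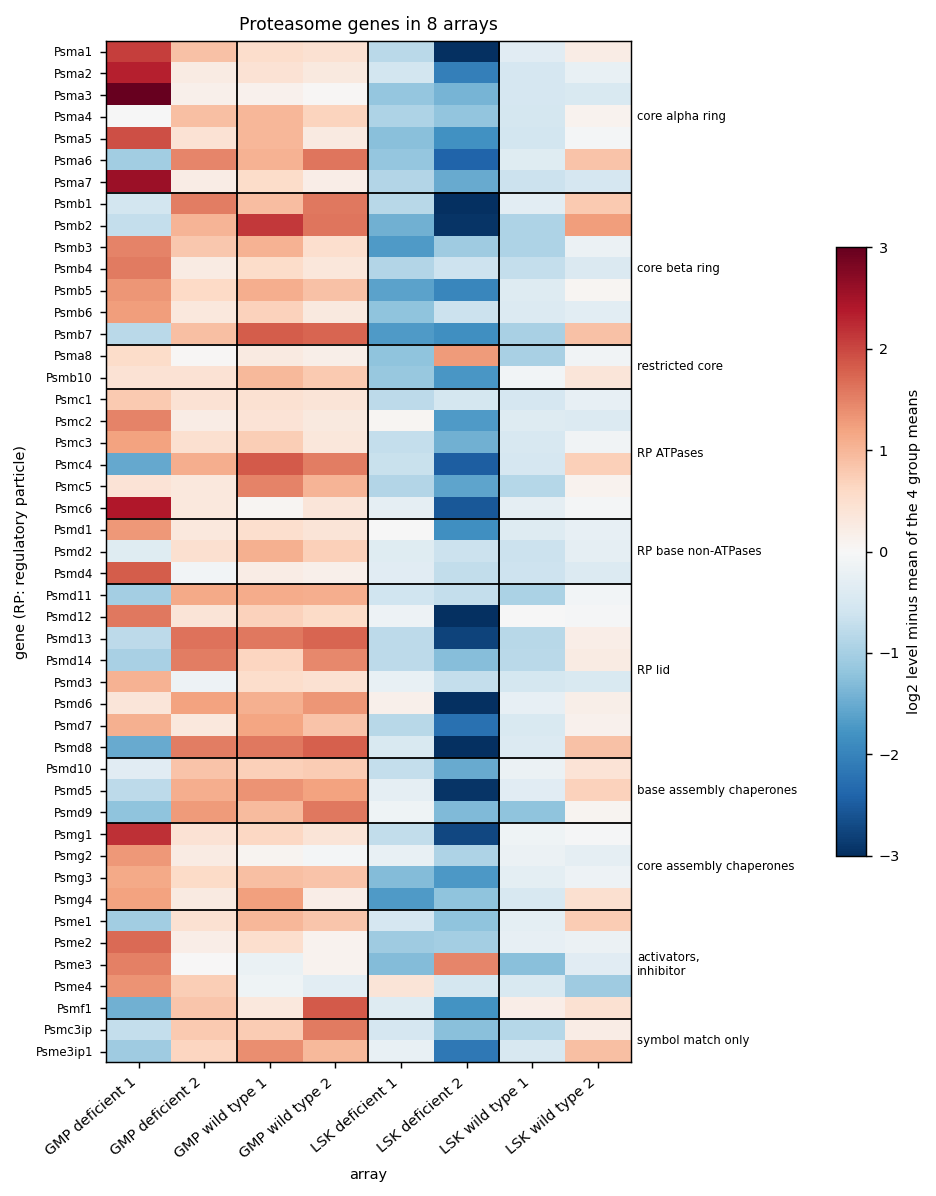
Log2 level of the 47 proteasome genes tested (rows, ordered by role) on the 8 arrays (columns), each gene minus the mean of its 4 group means. Colours end at 3 and −3. The median over the rows is above 0 on every GMP array and below 0 on every LSK array. On wild-type LSK replicate 2 it is −0.04, and red and blue rows are mixed. Rows are also mixed on ACKR1-deficient GMP replicate 1, where they run from −1.53 to 3.18. ACKR1-deficient LSK replicate 2 is the lowest LSK array for 36 genes (35.4% of all features), and ACKR1-deficient GMP replicate 1 holds both the highest (24 genes) and the lowest (20 genes) GMP values.

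Proteasome genes were higher in GMP than in LSK of wild-type mice. All 47 differences were above 0, against 50.8% of all features tested, with a median log2 difference of 0.95 of the group means against 0.01 for all features. For 45 of the 47 genes both wild-type GMP arrays lay above both wild-type LSK arrays, a pattern found in 28.3% of all features. The exceptions were Psmg4, a chaperone of core assembly, and Psmf1, the proteasome inhibitor. No single gene was called by limma after adjustment over all 28088 features (0 of 47, with 1.86% of all features called in either direction), and 1 gene passed an unadjusted p under 0.05, as did 2.88% of all features in the higher direction. Among features well above background on all arrays, 56.2% were above 0 and the median was 0.08.

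The proteolytic subunits of the core were all higher in wild-type GMP. Psmb5, the chymotrypsin-like subunit, had log2 levels of 7.09 and 6.88 in wild-type GMP, against 5.62 and 6.07 in wild-type LSK, a difference of 1.14 (SE 0.64, adjusted p = 0.784, limma). Psmb7, the trypsin-like subunit, had 4.30 and 4.22 in wild-type GMP, against 1.52 and 3.35 in wild-type LSK, a difference of 1.83 (SE 0.83, adjusted p = 0.609). Psmb6, the caspase-like subunit, had 6.78 and 6.38 in wild-type GMP, against 5.67 and 5.77 in wild-type LSK, a difference of 0.86, the smallest of the beta ring. In all 3 genes the groups did not overlap, and the wild-type LSK arrays of Psmb7 stood far apart from each other. Psmb10, the inducible subunit that replaces Psmb7 in immunoproteasomes, had 6.86 and 6.66 in wild-type GMP, against 5.79 and 6.24 in wild-type LSK (difference 0.75). With quantile normalization the difference of Psmb10 was −0.02. In the alpha ring, which gates the barrel, the differences ran between 0.56 for Psma3 and 1.09 for Psma6.

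Among regulatory particle genes the range was wider. Psmc5, an ATPase of the base, had log2 levels of 4.78 and 4.31 in wild-type GMP, against 2.43 and 3.41 in wild-type LSK. Its difference of 1.62 (SE 0.67, 95% interval 0.13 to 3.12, adjusted p = 0.513) had the smallest p of all members. Psmc6, another ATPase of the same ring, had 2.51 and 2.82 in wild-type GMP, against 2.19 and 2.41 in wild-type LSK, a difference of 0.37. The interval of Psmc6 (−1.70 to 2.44) covers most of that of Psmc5, so the ring members cannot be ordered from these arrays. Psmd13, a lid subunit, had 4.32 and 4.48 in wild-type GMP, against 1.91 and 2.93 in wild-type LSK, and its difference of 1.98 was the largest of all 47. Psmd11, the lid subunit that braces the particle against the core, differed by 1.62, and Psmd12, its neighbour in the lid, by 0.66. Psmd2, the scaffold subunit of the base, had 5.25 and 4.91 in wild-type GMP, against 3.54 and 3.93 in wild-type LSK, a difference of 1.35 (adjusted p = 0.653), while Psmd4, a ubiquitin receptor, differed by 0.70. The promoter windows printed above for Psmd13, Psmd11, Psmd2 and Psmd12 therefore belong to genes from both ends of this range.

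Chaperones and activators were also above 0 in every case, at smaller sizes on the whole. The base chaperones ran between 0.62 for Psmd10 and 1.84 for Psmd9, and the core chaperones between 0.23 for Psmg2 and 1.10 for Psmg3. The activators and the inhibitor ran between 0.52 for Psme2 and 0.76 for Psme3. The genes matched by symbol only, Psmc3ip and Psme3ip1, were at 1.49 and 0.97, within the range of the subunits. The core had a median of 1.03 over 14 genes and the regulatory particle 1.19 over 17 genes, a difference smaller than the replicate SD of 0.29 for core minus regulatory particle on an array.

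Other housekeeping lists gave different medians in the same comparison. Cytosolic ribosomal proteins had a median of 0.28 (67 of 79 above 0), and subunits of the respiratory chain and ATP synthase had 1.02 (82 of 87 above 0), close to the proteasome genes. The size also depended on the scaling: with quantile normalization the members' median was 0.51 with 39 of 47 above 0, against 0.07 over all features.

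**Figure D2:**
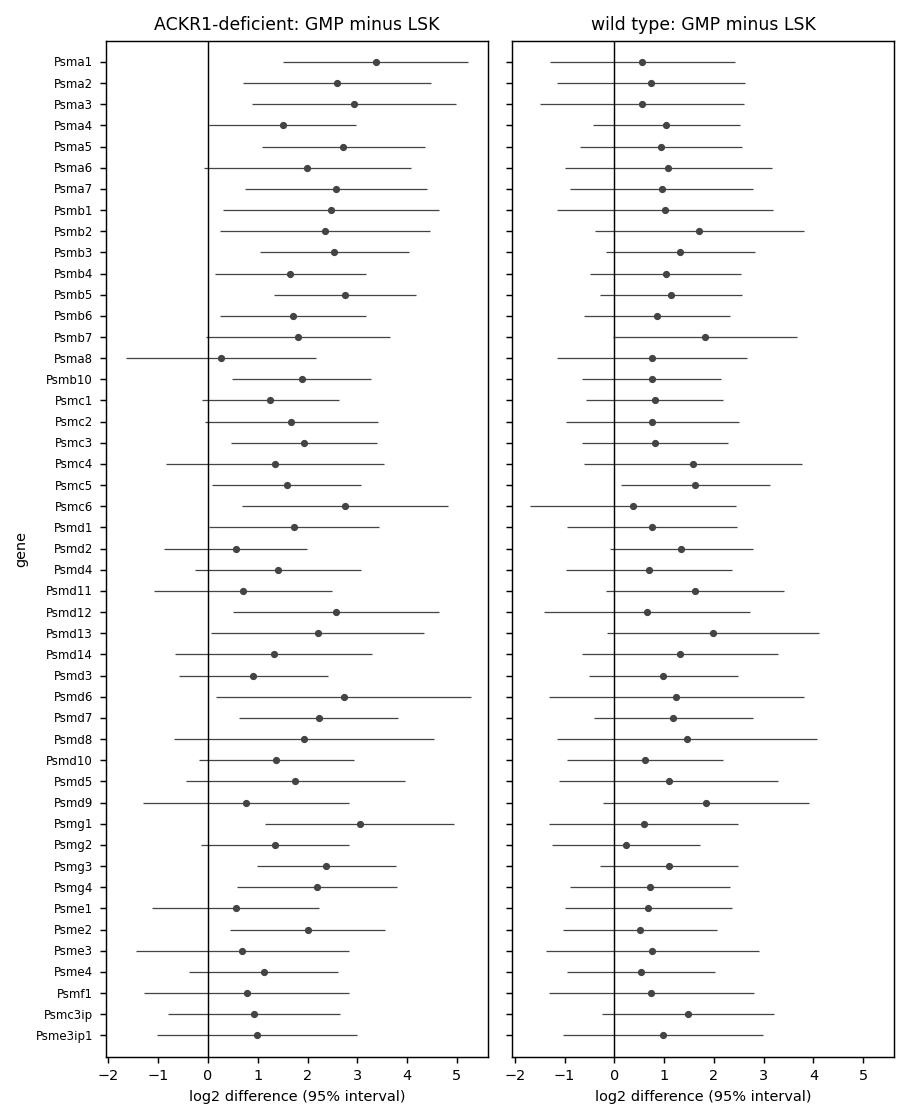
Log2 difference of GMP minus LSK for the 47 proteasome genes tested, in ACKR1-deficient mice (left) and wild-type mice (right), with 95% intervals from limma. All points lie to the right of 0 in both genotypes, and the intervals of most genes in wild-type mice include 0.

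In ACKR1-deficient mice the members were also higher in GMP than in LSK. All 47 differences were above 0, against 48% of all features, and the median was 1.75 against −0.07 for all features. Cytosolic ribosomal proteins had a median of 1.58 (78 of 79 above 0), and the respiratory chain and ATP synthase 2.40 (83 of 87 above 0). The GMP arrays lay above both LSK arrays for 35 members (background 18.4%), among them all 14 core genes and 13 of 17 regulatory particle genes. None was called by limma (0 of 47, with 0% of all features called), and 25 passed an unadjusted p under 0.05, as did 9.61% of all features. The weak array, ACKR1-deficient LSK replicate 2, and ACKR1-deficient GMP replicate 1 both enter here. Without them the median was 1.29 and all 47 genes stayed above 0. Without ACKR1-deficient LSK replicate 1, or with normexp background correction, 12 members were called in each case, where 4258 and 849 of the 28088 features were called.

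The genes with the smallest p were core subunits. Psmb5 had log2 levels of 7.34 and 6.62 in deficient GMP and 4.41 and 4.06 in deficient LSK, a difference of 2.74 (SE 0.64, adjusted p = 0.145). Psma1, an alpha subunit, had 6.85 and 5.67 in deficient GMP and 3.97 and 1.81 in deficient LSK, a difference of 3.37 (SE 0.83, adjusted p = 0.149), the largest of the members. For both genes the groups were far apart, and the deficient LSK replicates of Psma1 differed by more than the deficient GMP replicates. Psmb6 had 7.33 and 6.40 in deficient GMP and 4.88 and 5.43 in deficient LSK, and Psmb10 had 6.31 and 6.33 in deficient GMP and 4.74 and 4.14 in deficient LSK, differences of 1.71 and 1.88. Psmb7 had 1.67 and 3.38 in deficient GMP and 0.79 and 0.65 in deficient LSK, a difference of 1.81. Among the chaperones of core assembly, Psmg1 and Psmg3 were at 3.05 and 2.38. At the low end stood the regulatory subunit Psmd2 at 0.56, with 3.84 and 4.67 in deficient GMP and 3.83 and 3.56 in deficient LSK, and the activator Psme1 at 0.56.

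The core and the regulatory particle differed in this comparison, with medians of 2.50 and 1.67. Leaving out ACKR1-deficient GMP replicate 1 brought them to 2.08 and 1.73. The comparisons of GMP with LSK in the 2 genotypes use different arrays, and their difference is the interaction given further on.

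Within LSK, most proteasome genes were lower in ACKR1-deficient than in wild-type arrays. Of the 47 genes, 43 were below 0 (46.5% of all features), with a median log2 difference of −0.94 against 0.11 for all features. Both deficient arrays lay below both wild-type arrays for 28 genes (background 21.1%), 13 of the 14 core genes and 7 of the 17 regulatory particle genes. No gene was called by limma (0 of 47, with 0.239% of all features called), and 4 passed an unadjusted p under 0.05 in the lower direction, as did 3.38% of all features. Wild-type LSK replicate 2 was the highest LSK array for 38 of 47 members and for all 14 core genes, against 27.3% of all features. Without ACKR1-deficient LSK replicate 2 the median was −0.51, 39 genes were below 0 and 31 did not overlap (background 37%). Without ACKR1-deficient LSK replicate 1 the median was −1.45 and 3 members were called lower (2827 of 28088 features in either direction), and with normexp background correction it was −1.39.

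Psmb5 had log2 levels of 4.41 and 4.06 in deficient LSK and 5.62 and 6.07 in wild-type LSK, a difference of −1.61 (SE 0.64, 95% interval −3.03 to −0.18, adjusted p = 0.551). Psmb10 had 4.74 and 4.14 in deficient LSK and 5.79 and 6.24 in wild-type LSK, a difference of −1.57 (SE 0.63, adjusted p = 0.551). In both genes every deficient array was more than a log2 unit below the lower wild-type array. Psmb2, a beta subunit without a proteolytic site, had −1.28 and −2.78 in deficient LSK and −0.78 and 1.40 in wild-type LSK. Its difference of −2.34 was the largest, but the second deficient array was not well above background and the wild-type arrays differed by nearly as much. Psmb7 had 0.79 and 0.65 in deficient LSK and 1.52 and 3.35 in wild-type LSK (difference −1.72), and Psmb6 had 4.88 and 5.43 in deficient LSK and 5.67 and 5.77 in wild-type LSK (difference −0.56). The groups of these genes did not overlap. Psma1 had 3.97 and 1.81 in deficient LSK and 4.44 and 5.0 in wild-type LSK, a difference of −1.83, most of it in the second deficient array.

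The exceptions in LSK were few. Psme3, a nuclear activator that works without ATP, had −0.74 and 2.02 in deficient LSK and −0.71 and 0.21 in wild-type LSK (difference 0.89, adjusted p = 0.685). Psme4, another nuclear activator, had 0.62 and −0.31 in deficient LSK and −0.24 and −0.83 in wild-type LSK (difference 0.69, adjusted p = 0.661). The groups overlapped for both, and Psme3 was high on the weak array alone: without it the difference was −0.49. For Psme4 the second probe read −0.70 in the same comparison. Psmd3, a lid subunit, was at 0.02, and Psmd4 and Psmd2 of the base were at −0.03 and −0.04. Psma8 was the remaining gene above 0.

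Several measurements moved with genotype in LSK. The summed level of 10 neutrophil granule markers was 1352 and 3268 times the array's 75th percentile in deficient LSK and 3.36 and 10.6 in wild-type LSK, with 10 of 10 higher and 8 called. The summed level of 10 erythroid markers was 1506 and 8422 in deficient LSK and 7.55 and 53.0 in wild-type LSK, with 10 of 10 higher and 5 called. The B lineage markers, of which 8 of 10 were tested, summed to 17.2 and 11.1 in deficient LSK and 9.22 and 11.8 in wild-type LSK. On wild-type LSK arrays 6 and 9 of the neutrophil markers, and 5 and 8 of the erythroid markers, were well above background. In bulk samples, fewer cells of a type and less RNA per cell cannot be told apart. Ribosomal proteins (median −1.12) and the respiratory chain (median −1.21) were lower in deficient LSK too. The part of the other cell types, the weak array and the slide column in the members' result was not tested.

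**Figure D3:**
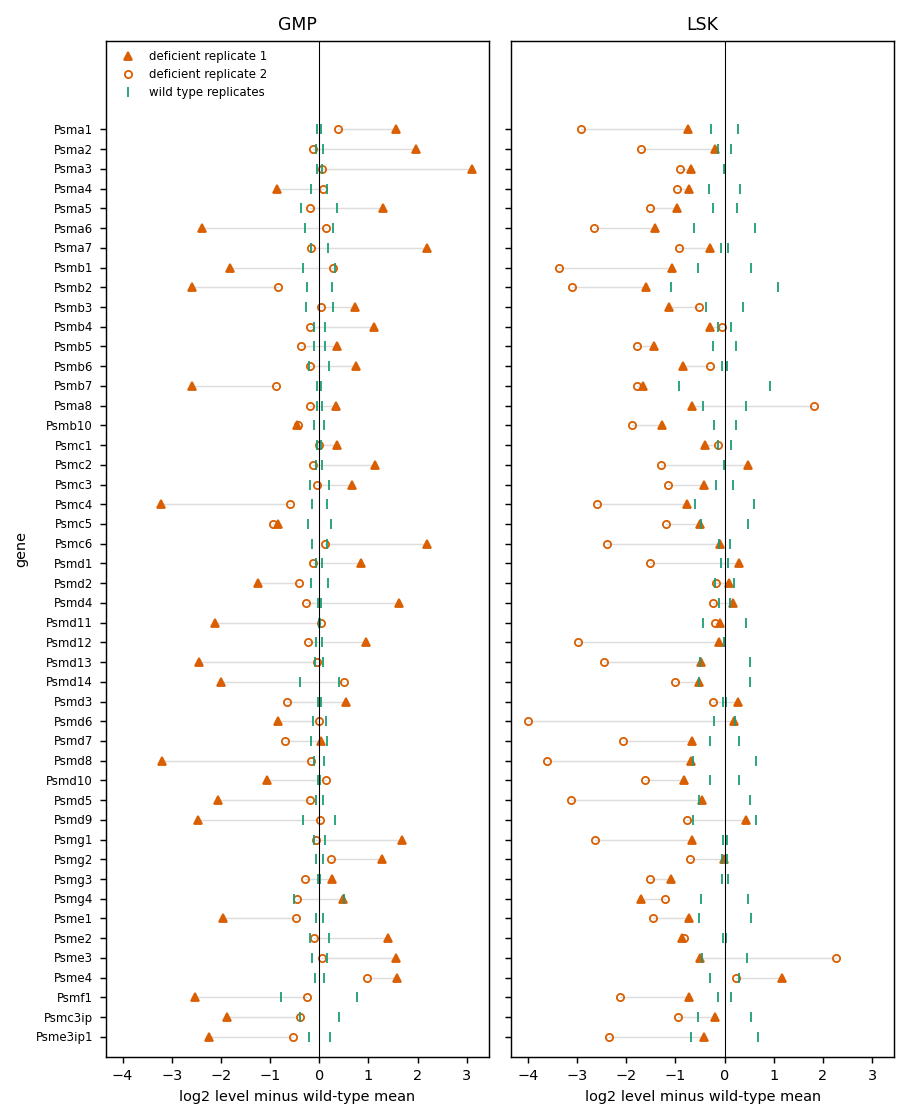
Log2 level of each proteasome gene on the ACKR1-deficient arrays (orange, filled for replicate 1 and open for replicate 2) and the wild-type arrays (green) minus the wild-type mean, in GMP (left) and LSK (right). In LSK the orange points lie mostly to the left, with replicate 2 farther out; in GMP replicate 1 lies on both sides and replicate 2 close to the wild-type arrays.

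Within GMP the members had no common direction between genotypes. In ACKR1-deficient against wild-type GMP, 22 of 47 genes were above 0 (59.4% of all features) and 25 were below, with a median of −0.01 against 0.16 for all features. Both deficient arrays lay below both wild-type arrays for 10 genes (background 19.5%) and above them for 4 (background 20.1%). None was called by limma (0 of 47, with 0.146% of all features called), and none passed an unadjusted p under 0.05 (0 higher and 0 lower, against 3.42% and 1.41% of all features). Psmb7 had log2 levels of 1.67 and 3.38 in deficient GMP and 4.30 and 4.22 in wild-type GMP, a difference of −1.73 (SE 0.83, adjusted p = 0.955). Psmc4, an ATPase of the base, had 1.54 and 4.16 in deficient GMP and 4.91 and 4.61 in wild-type GMP, a difference of −1.91 (SE 0.98, adjusted p = 0.955). On the other side, Psme4 had 1.58 and 0.97 in deficient GMP and 0.10 and −0.09 in wild-type GMP (difference 1.27, adjusted p = 0.955). Psma3, an alpha subunit, had 9.01 and 5.97 in deficient GMP and 5.96 and 5.86 in wild-type GMP (difference 1.58, adjusted p = 0.955). In Psmc4 and Psma3 most of the difference came from the first deficient array, and the second lay near the wild-type arrays, while both deficient arrays of Psme4 were clear of them at the probe used. At the second probe of Psme4 the difference was −0.07, with −1.54 and 0.20 in deficient GMP and −0.57 and −0.63 in wild-type GMP, and the groups overlapped. At the probes used, the groups overlapped for none of these 4 genes.

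For Psmb5, Psmb6 and Psmb10 the genotype differences in GMP were smaller at the probes used. Psmb5 had 7.34 and 6.62 in deficient GMP and 7.09 and 6.88 in wild-type GMP, a difference of −0.01 with a 95% interval of −1.43 to 1.42. At the second, dimmer probe of Psmb5 the difference was −1.43. That probe read 2.77 and 4.34 in deficient GMP and 5.07 and 4.90 in wild-type GMP, without overlap. Psmb6 had 7.33 and 6.40 in deficient GMP and 6.78 and 6.38 in wild-type GMP, a difference of 0.29. Psmb10 had 6.31 and 6.33 in deficient GMP and 6.86 and 6.66 in wild-type GMP, a difference of −0.44 without overlap. The interval of Psmb5 holds differences of a log2 unit either way and that of Psmb10 ran between −1.84 and 0.96, so equal levels are not shown.

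A single array set the spread in GMP. ACKR1-deficient GMP replicate 1 was the highest GMP array for 24 members and the lowest for 20, against 52.8% and 28.4% of all features. Without it, 14 of 47 genes were above 0, the median was −0.16, 21 genes lay below both wild-type arrays (background 43.6%) and 7 above them (background 28.8%). The summed neutrophil markers were 3333 and 1253 in deficient GMP and 8.78 and 17.2 in wild-type GMP (10 of 10 higher, 6 called). The summed erythroid markers were 2985 and 1534 in deficient GMP and 4.89 and 11.7 in wild-type GMP (10 of 10 higher, 5 called), and the B lineage markers 19.2 and 14.3 in deficient GMP and 14.4 and 12.0 in wild-type GMP. These sums were higher on replicate 1 than on replicate 2 of deficient GMP, and their part in the members' values was not tested.

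Probes of 1 gene allow a check inside these arrays. Of the members, 11 genes had 2 kept probes. In wild-type mice the probes gave the same sign of GMP minus LSK for 10 of 11 genes, Psme4 being the exception. For the genotype difference in LSK they also shared the sign in 10 of 11 genes, again with Psme4 as the exception, and in GMP in 5 of 11. The difference of deficient GMP replicate 1 minus replicate 2 had opposite signs at the probes of 7 genes, with a median gap of 2.32 log2 units. The same gap for wild-type GMP replicate 1 minus replicate 2 was 0.24. For Psmc3, an ATPase, the brighter probe read 0.72 and the dimmer one −2.66. For the activator Psme2 the readings were 1.48 and −2.42, for Psmb5 0.72 and −1.57, and for the chaperone Psmd10 −1.19 and 3.1. Values of single members that rest on ACKR1-deficient GMP replicate 1 therefore depended on the probe.

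**Figure D4:**
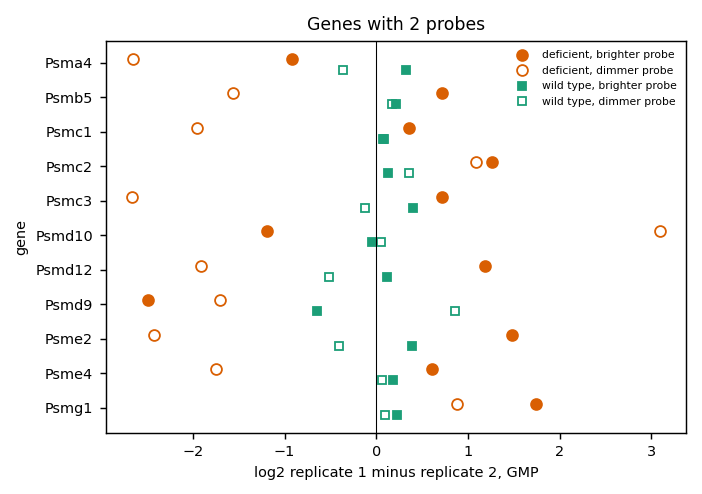
Log2 level on replicate 1 minus replicate 2 of GMP at the brighter (filled) and dimmer (open) probe of the 11 members with 2 probes, for ACKR1-deficient (orange circles) and wild-type (green squares) arrays. Wild-type points lie near 0, and deficient points spread to both sides with opposite signs for 7 genes.

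Averaged over both populations, 38 of 47 genes were below 0 in ACKR1-deficient arrays (41.5% of all features), with a median of −0.60 against 0.17. Psmb2 was at −2.03 (SE 0.67, adjusted p = 0.356, limma), Psmb7 at −1.72 (SE 0.59, adjusted p = 0.368) and Psmc4 at −1.80 (SE 0.69, adjusted p = 0.384). Psmb10 was at −1.01 (SE 0.44, adjusted p = 0.405). None was called (0 of 47, with 0.602% of all features called), 6 passed an unadjusted p under 0.05 in the lower direction (5.37% of all features), and 7 had both deficient arrays below both wild-type arrays in each population (background 7.34%). Psme4 (0.98) and Psme3 (0.85) had the smallest p among the 9 genes above 0.

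The genotype difference was more positive in GMP than in LSK for 36 of 47 members, against 49.7% of all features. The median of this difference between differences was 0.76, against −0.01 over all features. It was 1.33 for the core and 0.47 for the regulatory particle. Cytosolic ribosomal proteins had a median of 1.36 (77 of 79 above 0). Subunits of the respiratory chain and ATP synthase had 1.41 (76 of 87 above 0), so the pattern was not particular to the members. Psma1 had the smallest p, at 2.80 (SE 1.18, 95% interval 0.18 to 5.43, adjusted p = 0.961, limma), and Psmg1, which starts the alpha ring with Psmg2, followed at 2.46 (adjusted p = 0.961). Psmg1 had log2 levels of 6.52 and 4.77 in deficient GMP, 4.95 and 4.72 in wild-type GMP, 3.58 and 1.61 in deficient LSK, and 4.20 and 4.28 in wild-type LSK. In both genes the highest value of all 8 arrays was deficient GMP replicate 1 and the lowest was deficient LSK replicate 2. In the negative direction stood Psmd2 at −0.79 and Psmd9 at −1.07 (adjusted p = 0.961 for both). None was called (0 of 47, with 0% of all features called), and 1 passed an unadjusted p under 0.05 (1.41% of all features in the higher direction). Without ACKR1-deficient LSK replicate 2 the median was 0.34.

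Core and regulatory particle were then set side by side on each array, as the median over genes after centring each gene on the mean of its 4 group means. In deficient GMP the core stood at 1.41 and 0.71 and the regulatory particle at 0.78 and 0.42. In wild-type GMP the core stood at 0.96 and 0.48 and the regulatory particle at 0.73 and 0.72. Both particles were thus above their mean on all GMP arrays. In deficient LSK the core stood at −1.16 and −1.82 and the regulatory particle at −0.47 and −1.70. In wild-type LSK the core stood at −0.51 and 0.00 and the regulatory particle at −0.50 and −0.05. Every deficient LSK array was below every wild-type LSK array for the core, while the regulatory particle of deficient LSK replicate 1 reached the level of wild-type replicate 1. Core minus regulatory particle was 0.63 and 0.29 in deficient GMP, 0.23 and −0.24 in wild-type GMP, −0.70 and −0.12 in deficient LSK, and −0.02 and 0.05 in wild-type LSK. The balance was most positive on both deficient GMP arrays and most negative on deficient LSK replicate 1, with wild-type GMP replicate 2 next, and the spread within groups was as large as most gaps between them.

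In terms of the fitted differences, the core minus the regulatory particle was 0.66 for the genotype difference in GMP and −0.30 for that in LSK. The value in GMP was −0.016 without ACKR1-deficient GMP replicate 1, and the value in LSK was −0.78 without ACKR1-deficient LSK replicate 2. Averaged over populations it was 0.21, and −0.21 in each case when 1 of these arrays was left out. No test was made of this balance.

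**Figure D5:**
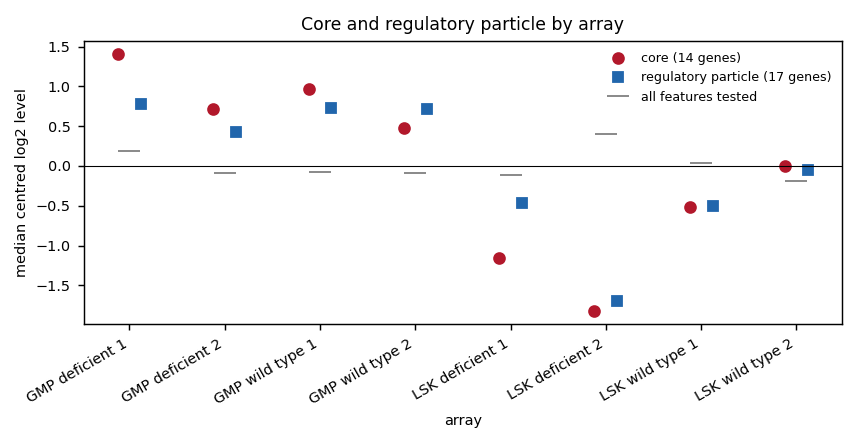
Median centred log2 level of the core (red circles, 14 genes) and of the regulatory particle (blue squares, 17 genes) on each of the 8 arrays, with the median of all features tested as a grey bar. Both particles lie above 0 on every GMP array, and the core lies below the regulatory particle by 0.70 on ACKR1-deficient LSK replicate 1 and above it by 0.63 on ACKR1-deficient GMP replicate 1.

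Genes that work with the proteasome but were not members were read from a list of 25, of which 24 were tested. None was called by limma in any of the 6 comparisons (0 of 24 in each), and at an unadjusted p under 0.05 the counts were 6 higher for GMP minus LSK in deficient mice (9.61% of all features), 1 higher for the same in wild-type mice (2.88%), 1 lower for genotype in LSK (3.38%), 3 lower averaged (5.37%), and 0 for genotype in GMP and for the difference between differences. For GMP minus LSK in wild-type mice 21 of 24 were above 0 (50.8% of all features), with a median of 0.76. Adrm1, a ubiquitin receptor of the regulatory particle, was at 1.49 (adjusted p = 0.540) and Ddi2, the protease that activates Nfe2l1, at 1.39, while Zfand5 (−1.10) and Txnl1 (−0.40) were below 0. In deficient mice 21 of 24 were above 0 (48% of all features), with a median of 1.31. Sem1, the smallest regulatory particle subunit, was at 3.13 (adjusted p = 0.140) and Pomp, the maturation factor of the core, at 2.25. Nfe2l1 was at −1.33, with −3.66 and −1.84 in deficient GMP and −2.48 and −0.36 in deficient LSK, and its groups overlapped. As for the members, most of the list was above 0 in both genotypes.

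Between genotypes the immunoproteasome subunits of this list were lower in deficient arrays of both populations, without passing the adjusted test. Psmb8, the inducible counterpart of Psmb5, had log2 levels of 2.62 and 5.35 in deficient GMP and 5.73 and 5.81 in wild-type GMP (difference −1.78). In LSK it had 3.39 and 1.08 in deficient and 3.82 and 5.13 in wild-type arrays (difference −2.24). Psmb9, the counterpart of Psmb6, had 3.69 and 4.74 in deficient GMP and 5.30 and 5.22 in wild-type GMP (difference −1.05), and 3.63 and 2.12 in deficient LSK and 3.90 and 5.11 in wild-type LSK (difference −1.63). The deficient arrays of Psmb8 and Psmb9 were below the wild-type arrays in every case, as for Psmb10. That pattern in both populations was found in 7.34% of all features. For Psmb8 and Psmb9 the lower deficient array was replicate 1 in GMP and the weak replicate 2 in LSK. Averaged over populations, Psmb8 was at −2.01 (adjusted p = 0.381, limma), Psmb9 at −1.34 (adjusted p = 0.391) and the ubiquitin-activating enzyme Uba1 at −1.74 (adjusted p = 0.389). Other genes of the list were named because their p was among the smallest of a direction, and none was called. They were Nfe2l1 at 1.15 in LSK, Ddi2 and Adrm1 at −1.39 and −1.13 in GMP, and Rps27a and Ecpas at 1.07 and 0.95 in GMP. Nfe2l1 had −2.48 and −0.36 in deficient LSK and −2.63 and −2.51 in wild-type LSK (adjusted p = 0.610, limma). Its difference thus came almost wholly from the weak array, ACKR1-deficient LSK replicate 2. In LSK 20 of 24 were below 0 (46.5% of all features), with a median of −0.58, and in GMP 12 were above (59.4% of all features) and 12 below, with a median of 0.00.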

How the data were processed

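RNA of the sorted cells was labelled with Cy3 and hybridised to 1-colour Agilent arrays, per the labels' protocols. Per the file headers, Agilent Feature Extraction 10.7.3.1 read the spots, and the processed signal deposited for each spot is a background-corrected fluorescence intensity on a linear scale. The authors also deposited a table of log2 values; each column matched the log2 of the scanner's processed signal after a shift by the 75th percentile of the array and a centring per probe (r of 0.9996 to 0.9999, medians between −0.27 and 1.25), which was used as an alternative. Other steps upstream of these files are not stated in the labels or headers.

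From the intensities, log2 signal minus the array's 75th percentile was taken, control and outlier spots were dropped (104 to 139 spots per array were outliers; 0 were saturated) and spots of a probe were averaged. A probe was kept if some group had it well above background on its 2 arrays (39098 of 55681), each gene was represented by its brightest kept probe, and accessions were named through the RefSeq gene table of GRCm38.p6 (26582 probes, 20145 symbols). This left 28088 features. In 13 of them, none a member, 1 array was missing. The groups were fitted with limma 3.58.1 in R 4.3.3 (4 group means, empirical Bayes with 5.76 prior and at most 4 residual degrees of freedom), 6 comparisons were drawn, and p-values were adjusted by Benjamini-Hochberg over all features and called under 0.05. Changes of known size in 50 genes were simulated for genotype within each population and for GMP minus LSK within each genotype. Calls recovered 0% of the changes of 1 log2 unit in each of these comparisons. Recovery was 0% to 4% at 2 log2 units and 20% to 40% at 4, with 0 to 4 false calls. A count of 0 members called thus cannot show that differences of 2 log2 units or less were absent. Alternatives were normexp background correction with an offset of 50 on the median signal (the mean signal column is not used here), quantile and median scaling, other probe filters, the mean of a gene's probes, array weights, a replicate block, a fit on the arrays of a comparison alone, the deposited table, core and regulatory particle by symbol letter, and arrays left out. The number of arrays limits the precision.

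Named with values were Psmb5, Psmb6, Psmb7 and Psmb10, the 2 members with the smallest p in each direction of each comparison, and the members with the largest and smallest difference of a role. Other members were named for a check or as exceptions after their values were seen. Single values of 2 listed genes that are not members are not reported here. The members, gene lists and tests were chosen with earlier results of these data known, and the promoters of protein-coding and of tested genes and the non-overlap counts without an array were added after seeing the data.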

Additional observations from a re-analysis of the deposited data

Results flagged for a closer look

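Psma1 and Psma3, both subunits of the alpha ring, had both ACKR1-deficient arrays above both wild-type arrays in GMP and below both in LSK. For Psma1 the genotype difference was 0.97 in GMP and −1.83 in LSK, and the difference between them was 2.80 (adjusted p = 0.961, limma). For Psma3 it was 1.58 in GMP and −0.79 in LSK, with a difference of 2.37 (adjusted p = 0.961). The opposite pattern of arrays called attention to them, and the test of the difference itself was not passed by either. Such opposite positions occurred in 2 of 47 members (4.26%) and in 970 of 28075 features (3.46%). In both genes the highest GMP value came from ACKR1-deficient GMP replicate 1. For Psma3 the other deficient GMP array read 5.965 and wild-type GMP replicate 1 read 5.963, which is nearly equal. Groups of 2 arrays are too small for a check of single outlying arrays.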

How the results depend on the processing

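No member was called in most alternatives. Differences of some named genes changed sign, counted over alternatives and comparisons. This happened 9 times for Psmb7, 4 for Psmb6, 3 for Psme3, 2 for Psmb5, and 1 each for Psmb10, Psme4 and Psmd9. Core minus regulatory particle and the members' median for genotype in GMP also changed sign in some alternatives. With normexp background correction the median member difference between genotypes in LSK was −1.39, and 12 members were called for GMP minus LSK in ACKR1-deficient mice (849 of 28088 features). With quantile normalization the member medians of GMP minus LSK were 1.25 in ACKR1-deficient and 0.51 in wild-type mice. Scaling also moved all features: in the LSK genotype difference their median was 0.41 with normexp and −0.25 with quantile normalization, against 0.11, and the members' median relative to it was −1.80, −0.57 and −1.06. With both ACKR1-deficient LSK replicate 2 and GMP replicate 1 left out, the median was −0.51 for the genotype in LSK and 1.29 for GMP minus LSK in deficient mice, and core minus regulatory particle was −0.78 in LSK, −0.016 in GMP and −0.28 averaged.

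Leaving out each array in turn gave the following lowest and highest values. The median was −1.45 to −0.51 for genotype in LSK, −0.16 to 0.34 in GMP, −0.76 to −0.38 averaged and 0.34 to 1.23 for their difference. It was 0.69 to 1.19 for GMP minus LSK in wild-type and 1.37 to 2.18 in deficient mice. Core minus regulatory particle was −0.78 to −0.055 for genotype in LSK, −0.016 to 0.70 in GMP, −0.21 to 0.55 averaged, 0.23 to 1.36 for their difference, −0.19 to 0.11 for GMP minus LSK in wild-type and 0.36 to 0.96 in deficient mice. Between 0 and 3 members were called for genotype in LSK and between 0 and 12 for GMP minus LSK in deficient mice, the upper counts without ACKR1-deficient LSK replicate 1. Without ACKR1-deficient GMP replicate 1, 21 members lay below both wild-type GMP arrays (43.6% of all features) and 7 above them (28.8%). In the same setting 45 members were higher without overlap for GMP minus LSK in deficient mice (29.6% of all features). Without ACKR1-deficient LSK replicate 2, 31 members were lower without overlap between genotypes in LSK (37% of all features). For GMP minus LSK in deficient mice 37 were then higher without overlap (36.1% of all features). The cause was not tested. A lone array was assumed to vary like the other groups.

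Psmb5, Psmb6 and Psma1 were called for GMP minus LSK in deficient mice with normexp (adjusted p = 0.0224, 0.0494 and 0.0281). In the fit with a replicate block, 0 members were called in each of the 6 comparisons and the medians stayed, for example −0.94 for genotype in LSK. The replicate numbers come with slide rows and were not taken to pair the samples. Deviations of same-numbered arrays correlated between −0.34 and 0.34. With 2 arrays per group, these values cannot show whether same-numbered arrays share a mouse. A fit on the arrays of a comparison alone could not be made for the average and the difference between differences. Weak signal limits ACKR1-deficient LSK replicate 2 most, where 10 tested members were not well above background.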

Other observations

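Psmb11, which was not tested, read −5.73 and −6.98 in ACKR1-deficient GMP, −7.11 and −7.62 in wild-type GMP, −6.88 and −2.85 in ACKR1-deficient LSK and −3.88 and −7.51 in wild-type LSK, on the log2 scale with 0 at the 75th percentile. It was well above background on 1 array. In the comparison of genotypes within LSK, the base subunits other than ATPases (Psmd1, Psmd2 and Psmd4) had a median of −0.04 and the lid a median of −1.42, with 0 of 3 and 3 of 8 genes free of overlap in the lower direction (21.1% of all features). The median centred level of the lid was −0.53 and −2.50 in ACKR1-deficient LSK and −0.49 and 0.14 in wild-type LSK, so the lid was lowest on the weak array, ACKR1-deficient LSK replicate 2. In GMP the genotype difference had a median of 0.92 in the alpha ring and −0.59 in the lid. The centred level of the alpha ring was 2.06 and 0.44 in deficient GMP and 0.55 and 0.30 in wild-type GMP, and that of the lid −0.21 and 1.16 in deficient GMP and 1.10 and 1.21 in wild-type GMP. On deficient GMP replicate 2 both were close to the wild-type arrays.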
